A study of Mus musculus with 7 samples.

Results

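Genes of the LDL receptor pathway and of sterol transport inside the cell were followed in mouse liver mRNA. The genes described are Mylip, Lrp1, Stard4, Npc1 and Npc2, which were chosen by symbol from the table of expression values for their place in lipoprotein uptake and in the handling of the cholesterol that uptake brings in. These are 5 of 21706 listed genes, and all 5 were among the 10455 genes expressed highly enough to be tested. The control group comprised 4 male C57BL/6 mice injected with a control oligonucleotide (control oligo). The other group comprised 3 male C57BL/6 mice injected with tsRNA-Glu-CTC oligo-1 (oligo-1), a synthetic RNA whose sequence is that of a small RNA cut from the glutamate transfer RNA. In both groups the mice were wild type, 8 weeks old and injected for 2 weeks, into the peritoneum per the study, which also kept them on a semisynthetic diet low in cholesterol. The comparison asks which liver transcripts differ when the hepatic level of tsRNA-Glu-CTC is raised in this way.

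Hepatocytes clear lipoprotein particles from blood by receptor-mediated endocytosis, and the lysosome then releases free cholesterol from the cholesteryl esters of the particle. The soluble lysosomal protein NPC2 binds this cholesterol and passes it to NPC1, a protein of the lysosomal membrane, which exports it. Beyond the lysosome, cholesterol moves between membranes on soluble carriers such as STARD4. Cells adjust the pathway at both ends. A falling sterol level activates SREBP2, which raises transcription of uptake and synthesis genes. A high level of oxidised sterols activates LXR, which in some tissues raises the receptor-degrading ligase encoded by Mylip.

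Values are TPM, a share of the library's transcripts corrected for transcript length, so that levels of different genes can be set side by side. Sequencing depth is unknown for TPM. Controls 1 and 4 stood apart from the other 5 libraries. Over the tested genes, the correlation between these 2 libraries was 0.988, and that of either with the others was 0.928 to 0.947. The major urinary protein genes took 1.44% and 1.63% of the listed TPM in these 2 controls and 8.45% to 12.7% elsewhere. The summed level of 11 Kupffer cell and macrophage markers was 676 TPM in control 1 and 872 TPM in control 4, against 94.8 to 106 TPM in controls 2 and 3 and 121 to 152 TPM in the oligo-1 libraries, with no marker at 0. The 7 stellate cell and fibroblast markers summed to 339 and 315 TPM in controls 1 and 4 and to 84.7 to 99.8 TPM in the other libraries. The sum of the 6 hepatocyte markers analysed was 49500 TPM in oligo-1 replicate 3 and between 55400 and 66500 TPM in the other libraries. Alb was the largest part of this sum in every library. The 5 cholangiocyte markers, of which Krt19, Krt7 and Epcam were at 0 in at least 1 library, summed to 54.5 TPM in oligo-1 replicate 3, to 52.5 and 52.2 TPM in controls 1 and 4, and to 22.3 to 25.1 TPM in the others. Spp1 was the largest part of the cholangiocyte sum in every library. The 6 blood leukocyte markers summed to 16.0 TPM in control 3, to 14.0 and 13.8 TPM in controls 1 and 4, and to 4.05 to 4.57 TPM in the others. In control 3 that sum was mostly S100a8 and S100a9, and Ptprc was lower there than in any other library. The 7 sinusoidal endothelial markers summed to 69.0 to 111 TPM. In bulk liver, fewer cells of a type and less RNA per cell cannot be told apart.

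The 5 genes were expressed in all 7 libraries. Lrp1 had the highest mean level (36.5 TPM), followed by Npc2 (23.6 TPM), Stard4 (16.6 TPM), Npc1 (13.4 TPM) and Mylip (4.81 TPM). Lrp1 lay above 91.6% of listed genes and Mylip above 69.4%. Lrp1 exceeded Npc2 in 6 of 7 libraries, with control 4 as the exception, and Npc2 exceeded Npc1 in 7 of 7. Mylip was the lowest of the 5 in every library. Stard4 had no fixed place in the order. It lay below Npc1 in controls 1, 2 and 4 and above it in control 3 and in all 3 oligo-1 libraries, and it exceeded Npc2 in control 3, oligo-1 replicate 1 and oligo-1 replicate 3.

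**Figure D1:**
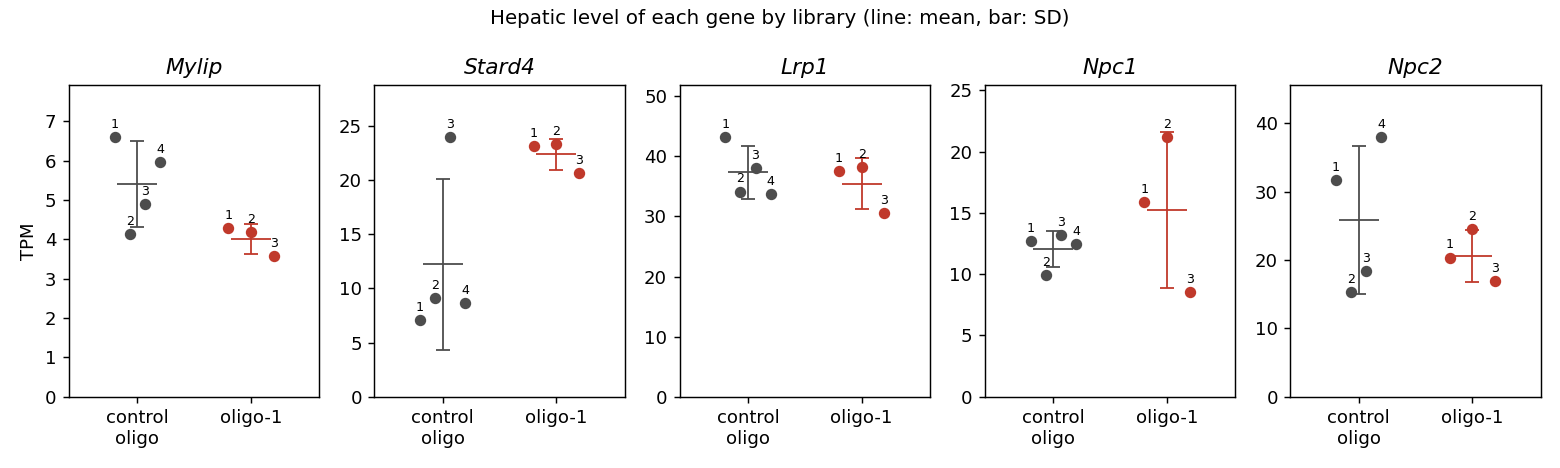
TPM of each gene (vertical axes) in each library, with one point per mouse, in the control oligo group (n = 4) and the oligo-1 group (n = 3), with group mean and SD. Stard4 lies between 20.7 and 23.3 TPM in the oligo-1 group and between 7.08 and 24.0 TPM in the controls, and the 2 groups overlap for all 5 genes.

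No gene of the 5 passed the threshold of an adjusted p below 0.05 in limma's test of oligo-1 against control oligo, and neither did any other gene, so that 0.00% of tested genes were called. The smallest adjusted p was 0.202, and 633 of 10455 genes had an unadjusted p below 0.05. Of the 5 genes, Stard4 was higher at an unadjusted p below 0.05, a result that 1.81% of tested genes gave in that direction (189 genes), and none was lower at that level, against 4.25% of tested genes (444 genes). The study's cut-offs (a fold above 1.5 and an unadjusted p below 0.01) were also applied to limma's values. By them, 1.47% of tested genes differed in either direction and none of the 5 did. The study took its p-values from edgeR, so this share is not the study's own count. The groups did not overlap, with oligo-1 as the higher group, in 2.00% of tested genes and, with oligo-1 as the lower group, in 4.98%, and none of the 5 was among them.

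Across the tested genes the median log2 fold change was -0.16, so most values were slightly lower in the oligo-1 libraries on the deposited scale. Median-ratio scaling, which sets the libraries to a common level of the typical gene, brought this median to -0.004. Each library is divided by a scaling factor. The factors were 1.267, 0.839, 0.959 and 1.215 in controls 1 to 4 and 0.948, 1.003 and 0.849 in oligo-1 replicates 1 to 3. After scaling, 4.64% of tested genes were higher and 3.90% lower at an unadjusted p below 0.05 in limma (485 and 408 genes).

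Stard4 encodes a small soluble carrier that binds a single sterol molecule and delivers it between the plasma membrane, the endocytic recycling compartment and the endoplasmic reticulum, and its transcription is under SREBP2. It lies on chromosome 18, from 33199355 to 33213862 on the minus strand of mm10. Stard4 transcripts measured 7.08, 9.13, 24.0 and 8.64 TPM in controls 1 to 4 and 23.2, 23.3 and 20.7 TPM in oligo-1 replicates 1 to 3. Control 3 was above every oligo-1 library, while the remaining 3 controls were below every one of them. The group means were 12.2 ± 7.92 TPM (SD, n = 4) and 22.4 ± 1.46 TPM (SD, n = 3). The coefficient of variation was 64.8% among controls and 6.52% among oligo-1 mice. On the log2(TPM + 1) scale the difference was 0.98 (SE 0.36, 95% interval 0.18 to 1.78), with an unadjusted p of 0.0219 and an adjusted p of 0.767 in limma, so Stard4 did not pass the threshold.

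The call on Stard4 depended on control 3. Without that library the log2 fold change was 1.34 (SE 0.20) with a limma adjusted p of 0.0393, and 29 genes passed the adjusted threshold in that comparison. Control 3 also had the highest blood leukocyte marker sum (16.0 TPM), with S100a8 at 6.1 TPM and S100a9 at 6.85 TPM. The general leukocyte marker Ptprc was at 0.647 TPM in control 3, the lowest of the 7 libraries. Controls 1 and 4, with low Stard4, had sums of 14.0 and 13.8 TPM. The part of blood cells in the Stard4 level of control 3 was not tested. Over all 13 alternatives the adjusted p lay between 0.0393 and 1.0. Without controls 1 and 4, the libraries with the high macrophage and stellate cell marker sums, the log2 fold change was 0.55 with an unadjusted p of 0.134. The direction was the same in all 13 alternatives, though leaving out the filter could not change it. The unadjusted p in limma was below 0.05 in 8 of the 13. After median-ratio scaling the levels were 5.59, 10.9, 25.1 and 7.12 in the controls and 24.4, 23.2 and 24.4 in the oligo-1 libraries, and the log2 fold change was 1.14 (unadjusted p = 0.0267, limma).

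The pattern of Stard4 over the libraries was compared with that of every tested gene. Likeness was measured as the root mean square difference of log2(TPM + 1) over the 7 libraries, after each gene had been centred on its own mean. The deposited scale was used, so a shift of a whole library is part of the likeness. The nearest was Bhlhe41 (0.194), a transcriptional repressor linked to the circadian clock, at 0.115, 0.228, 1.77 and 0.594 TPM in controls 1 to 4 and 1.69, 2.31 and 2.13 TPM in the oligo-1 libraries. It was followed by Plekha6 (0.249) and Apol7a (0.252). In all 3 genes control 3 was the highest control, with 27.3 TPM for Plekha6 against 12.4 to 15.2 TPM in the other controls, and 48.8 TPM for Apol7a against 21.6 to 22.9 TPM. Bhlhe41 was below 1 TPM in controls 1, 2 and 4, and likeness over 7 libraries is a description only.

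**Figure D2:**
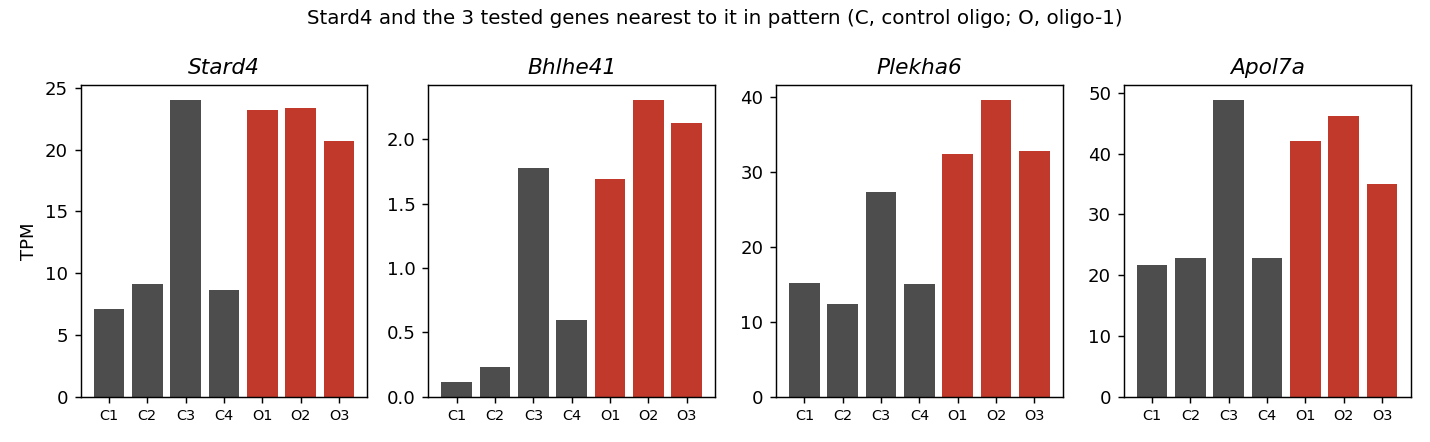
TPM (vertical axes, each starting at 0) of Stard4 and of the 3 tested genes nearest to it in pattern, with one bar per library, controls C1 to C4 in grey and oligo-1 libraries O1 to O3 in red. Control 3 is the highest control in each of the 4 panels, at 24.0 TPM for Stard4.

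Among the 4 sterol sensing genes that were higher in oligo-1 mice at an unadjusted p below 0.05, control 3 was the highest control for Insig1, Srebf1 and Scap and not for Srebf2. Insig1, which holds the SREBP complex in the endoplasmic reticulum and is itself an SREBP target, measured 57.5, 46.0, 76.7 and 40.4 TPM in controls 1 to 4 and 121, 149 and 123 TPM in the oligo-1 libraries. Control 3 was thus the highest control for Insig1 also, but below all oligo-1 libraries. Srebf2, which encodes SREBP2, measured 6.33, 9.41, 6.60 and 7.24 TPM in the controls and 14.5, 11.4 and 10.1 TPM in the oligo-1 libraries. For Srebf2 control 3 was the second lowest control. Srebf1, which encodes SREBP1, measured 44.7 TPM in control 3 and 21.6 to 37.0 TPM in controls 1, 2 and 4, with 45.8 to 82.0 TPM in oligo-1 mice. Scap, the escort protein of the SREBPs, measured 29.6 TPM in control 3 and 17.8 to 25.1 TPM in controls 1, 2 and 4, with 31.6 to 34.6 TPM in oligo-1 mice.

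Mylip, also known as IDOL, encodes an E3 ubiquitin ligase that marks the LDL receptor and close relatives for degradation in lysosomes. It lies on chromosome 13, from 45389742 to 45412022 on the plus strand of mm10. Mylip transcripts measured 6.61, 4.14, 4.89 and 5.98 TPM in controls 1 to 4 and 4.29, 4.18 and 3.57 TPM in the oligo-1 libraries. Controls 1 and 4 were the highest of the 7, and control 2 was below oligo-1 replicates 1 and 2. The group means were 5.40 ± 1.10 TPM (SD, n = 4) and 4.01 ± 0.385 TPM (SD, n = 3). The log2 fold change was -0.34 (SE 0.21, 95% interval -0.82 to 0.14), with an unadjusted p of 0.147 and an adjusted p of 0.775 in limma.

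Median-ratio scaling narrowed the spread of Mylip within the groups. Its scaled levels were 5.21, 4.94, 5.10 and 4.92 in controls 1 to 4 and 4.52, 4.17 and 4.21 in the oligo-1 libraries, with means of 5.04 ± 0.140 (SD, n = 4) and 4.30 ± 0.191 (SD, n = 3). All 3 oligo-1 libraries were then below all 4 controls, as was the case for 4.74% of tested genes on this scale. The scaled log2 fold change was -0.19 (SE 0.11) with an unadjusted p of 0.134 and an adjusted p of 0.678 in limma. Without controls 1 and 4 the value was -0.14 on the deposited scale. On the deposited scale the 2 controls highest in Mylip were those with the high Kupffer cell and stellate cell marker sums. The same 2 had the highest scaling factors (1.267 and 1.215). After scaling they no longer stood out, with control 1 the highest control (5.21) and control 4 the lowest (4.92). The part of those cells in the difference was not tested.

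The tested genes nearest to Mylip in pattern were Akt1s1 (root mean square difference 0.0274), which encodes a subunit of the growth-regulating kinase complex mTORC1, Zfp770 (0.0333) and Clcn7 (0.0356), which encodes a chloride transporter of the lysosome. Clcn7 measured 12.6, 8.09, 8.99 and 10.8 TPM in controls 1 to 4 and 8.15, 8.13 and 6.60 TPM in the oligo-1 libraries. Among the other 4 genes of the pathway, Lrp1 was the nearest to Mylip (0.193) and came in place 2910 of the tested genes. Controls 1 and 4, the highest for Mylip, also had the highest scaling factors (1.267 and 1.215). Likeness was not measured after scaling, so a pattern particular to Mylip cannot be told apart from a shift of whole libraries.

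The start of Mylip is shown because, of the genes with a promoter entry (3 of 5, namely Mylip, Npc2 and Lrp1), it held the most matches to the searched motifs. The window runs from 250 bases before to 50 bases after the annotated start in RefSeq (GRCm38.p6), at chr13:45389492-45389791 on the plus strand, and 71.0% of its bases are G or C. Capitals mark matches of CCAAT, the letters of the NF-Y box, which on this strand read ATTGG. The window of Npc2, at chr12:84773063-84773362 on the minus strand with 62.7% G or C, is printed beneath it for comparison.
Mylip: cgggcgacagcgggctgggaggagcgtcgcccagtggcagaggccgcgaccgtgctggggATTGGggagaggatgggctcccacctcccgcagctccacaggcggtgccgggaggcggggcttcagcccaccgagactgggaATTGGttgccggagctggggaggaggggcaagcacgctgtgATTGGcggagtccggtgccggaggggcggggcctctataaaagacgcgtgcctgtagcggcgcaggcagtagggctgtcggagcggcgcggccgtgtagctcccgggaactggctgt
Npc2: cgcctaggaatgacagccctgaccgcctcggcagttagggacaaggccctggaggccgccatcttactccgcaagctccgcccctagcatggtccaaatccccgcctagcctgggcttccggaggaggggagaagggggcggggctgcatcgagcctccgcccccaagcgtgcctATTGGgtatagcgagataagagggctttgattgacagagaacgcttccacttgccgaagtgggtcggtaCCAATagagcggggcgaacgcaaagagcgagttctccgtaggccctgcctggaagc

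The Mylip window holds 3 matches of CCAAT, all on the opposite strand, with first bases at -190, -108 and -67 relative to the start. The Npc2 window holds 2, with first bases at -75 on the opposite strand and at -6 on the gene's own strand. The Lrp1 window, at chr10:127621099-127621398 on the minus strand with 67.7% G or C, holds none. Of 32851 such windows in the table, 37.4% hold a match of CCAAT on either strand. None of the 3 windows holds TCACNCCAC, a form of the sterol response element found in 1.24% of windows, CACGTG, the E-box found in 7.15%, or TCACGTGA, the core of the lysosomal CLEAR element, which contains the E-box and was found in 0.974%. These matches describe letters in the window and carry no measurement of binding.

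Lrp1 encodes a large endocytic receptor of the LDL receptor family, which takes up chylomicron remnants as well as protease complexes and many other ligands. It lies on chromosome 10, from 127538161 to 127621148 on the minus strand of mm10. Lrp1 transcripts measured 43.3, 34.2, 38.1 and 33.8 TPM in controls 1 to 4 and 37.5, 38.2 and 30.6 TPM in the oligo-1 libraries. Control 1 was the highest library and oligo-1 replicate 3 the lowest, with the other 5 between 33.8 and 38.2 TPM. The means were 37.3 ± 4.41 TPM (SD, n = 4) and 35.5 ± 4.22 TPM (SD, n = 3), and the coefficients of variation were 11.8% and 11.9%. The log2 fold change was -0.07 (SE 0.17, 95% interval -0.46 to 0.32), with an unadjusted p of 0.685 in limma. The sign turned to 0.10 after median-ratio scaling and to 0.03 without oligo-1 replicate 3, so no direction can be given for Lrp1.

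The genes nearest to Lrp1 in pattern were Sik2 (root mean square difference 0.0248), a kinase related to AMPK, Pink1 (0.0322), a mitochondrial kinase, and Trip4 (0.0432). Pink1 measured 107, 89.1, 98.0 and 88.8 TPM in controls 1 to 4 and 96.9, 102 and 78.7 TPM in the oligo-1 libraries. Of the 2 controls with high Kupffer cell marker sums, control 1 (676 TPM) had the highest Lrp1 level of the 7 libraries and control 4 (872 TPM) the lowest of the controls.

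Npc1 encodes the cholesterol exporter of the lysosomal membrane. It lies on chromosome 18, from 12189692 to 12236400 on the minus strand of mm10. Npc1 transcripts measured 12.7, 9.91, 13.2 and 12.4 TPM in controls 1 to 4 and 15.9, 21.2 and 8.54 TPM in the oligo-1 libraries. The oligo-1 group held both the highest libraries and the lowest library of the 7. The means were 12.05 ± 1.46 TPM (SD, n = 4) and 15.2 ± 6.36 TPM (SD, n = 3), with coefficients of variation of 12.1% and 41.8%. The log2 fold change was 0.24 (SE 0.28, 95% interval -0.40 to 0.88), with an unadjusted p of 0.424 in limma.

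The value for Npc1 rested on single mice. Without oligo-1 replicate 2 it was -0.03, and without oligo-1 replicate 3 it was 0.58 with an unadjusted p of 0.037. Oligo-1 replicate 3 had the lowest hepatocyte marker sum (49500 TPM) and the highest cholangiocyte marker sum (54.5 TPM). Of the hepatocyte markers, Alb, Ahsg and Hnf4a were at their lowest there. Fgb (1085 TPM) was at its highest, Ttr (7357 TPM) was above every control, and Cyp2e1 lay mid-range. Spp1 made up 49.4 TPM of the cholangiocyte sum, and controls 1 and 4 reached 52.5 and 52.2 TPM. The part of these cells in the Npc1 level of oligo-1 replicate 3 was not tested. After median-ratio scaling the Npc1 means were 11.45 ± 1.72 (SD, n = 4) in controls and 16.0 ± 5.59 (SD, n = 3) in oligo-1 mice, and the log2 fold change was 0.40 (SE 0.24, unadjusted p = 0.132, limma). The groups still overlapped. The nearest genes in pattern were Wdtc1 (root mean square difference 0.121), Vgll4 (0.124), a cofactor that restrains the Hippo pathway effector YAP, and Adamts7 (0.134). Wdtc1 measured 29.2, 37.4 and 16.5 TPM in the oligo-1 libraries, with the same order of the 3 mice as Npc1, and 20.8 to 29.0 TPM in the controls.

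Npc2 encodes the soluble partner that hands cholesterol to NPC1 inside the lysosome. It lies on chromosome 12, from 84754562 to 84773152 on the minus strand of mm10. Npc2 transcripts measured 31.7, 15.3, 18.4 and 38.0 TPM in controls 1 to 4 and 20.4, 24.6 and 16.9 TPM in the oligo-1 libraries. Controls 1 and 4 were the highest of the 7, control 2 was the lowest, and control 3 lay within the range of the oligo-1 mice. The means were 25.9 ± 10.8 TPM (SD, n = 4) and 20.6 ± 3.84 TPM (SD, n = 3). The log2 fold change was -0.24 (SE 0.31, 95% interval -0.95 to 0.47), with an unadjusted p of 0.467 in limma.

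Without controls 1 and 4 the log2 fold change of Npc2 was 0.26, of the opposite sign, with an unadjusted p of 0.239. After median-ratio scaling it was -0.06 (SE 0.20, unadjusted p = 0.755, limma), with scaled levels of 25.1, 18.3, 19.1 and 31.3 in controls 1 to 4 and 21.5, 24.5 and 19.9 in the oligo-1 libraries. Controls 1 and 4 are those in which the Kupffer cell and macrophage marker sum was 676 and 872 TPM, and in which the stellate cell and fibroblast marker sum was 339 and 315 TPM. Npc2 is expressed in macrophages as well as in hepatocytes, and the part of other cell types in its level was not tested. The nearest genes in pattern were Mmp15 (root mean square difference 0.0591), a membrane-anchored matrix metalloproteinase, Atg4b (0.08), an autophagy protease, and Rnf2 (0.0825). Mmp15 measured 9.93 and 11.6 TPM in controls 1 and 4 and 4.01 to 6.59 TPM in the other 5 libraries.

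The partner genes of the lysosomal export step thus differed in which mice stood out. The coefficient of variation of Npc2 was 41.7% in controls and 18.6% in oligo-1 mice, whereas that of Npc1 was 12.1% and 41.8%. Within the oligo-1 group, replicate 3 had the lowest value for all 5 genes on the deposited scale and for 3 of 5 after median-ratio scaling. Replicate 3 also had the lowest scaling factor of the group (0.849, against 0.948 and 1.003), so its typical gene was low as well. The share of all tested genes that were lowest there is not given here. That count is therefore no result about the 5 genes.

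**Figure D3:**
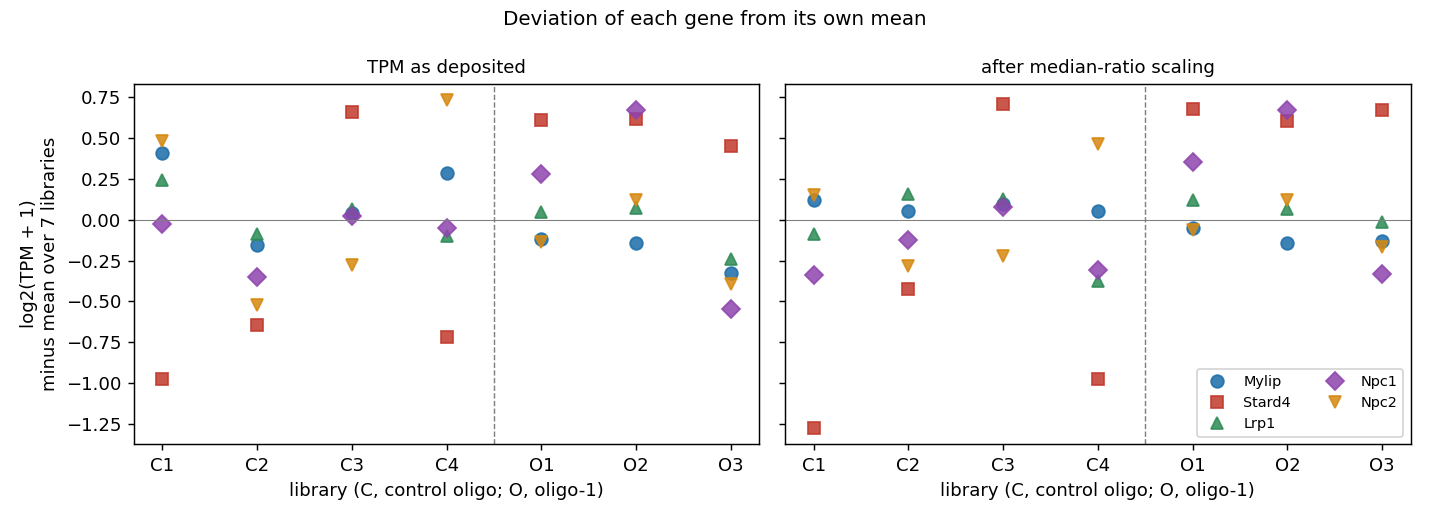
Deviation of each gene from its own mean over the 7 libraries, in log2(TPM + 1) units (vertical axis), by library (C1 to C4 control oligo, O1 to O3 oligo-1), as deposited on the left and after median-ratio scaling on the right. Stard4 deviates upward in C3 and all oligo-1 libraries in both panels, and O3 is the lowest oligo-1 library for all 5 genes in the left panel. O3 also had the lowest scaling factor of the oligo-1 libraries (0.849).

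Other genes of the pathway were grouped by role. Each group is described by its counts and median log2 fold change, to be read against the median of -0.16 over all tested genes. Of all tested genes, 1.81% were higher and 4.25% lower at an unadjusted p below 0.05 in limma. The share of all tested genes with values below 0 is not given here, and most were below 0. Counts of values below 0 are therefore no result about a group. Of 16 lipoprotein receptor genes, 10 were tested, of which none was higher and 1 lower at an unadjusted p below 0.05, and the median was -0.25. That gene was Sdc1, which encodes syndecan-1, the heparan sulfate proteoglycan that binds remnant lipoproteins on hepatocytes. Sdc1 measured 135, 70.1, 84.6 and 117 TPM in controls 1 to 4 and 55.3, 56.2 and 42.3 TPM in the oligo-1 libraries. All oligo-1 mice were thus below all controls, as was the case for 4.98% of tested genes. The log2 fold change of Sdc1 was -0.94 (SE 0.24), with an unadjusted p of 0.00364 and an adjusted p of 0.450 in limma. The scavenger receptor gene Cd36 (-1.19, unadjusted p = 0.0737, limma) and the HDL receptor gene Scarb1 (-0.41, unadjusted p = 0.0830, limma) came next by p. Vldlr, Lrp2, Lrp8, Lrp11, Lrp12 and Sorl1 were below the filter.

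The receptors of this family need chaperones to fold, adaptors to enter coated pits and sorting complexes to return to the cell surface. Of 17 such genes 16 were tested, with 15 values below 0, a median of -0.31, none higher and 2 lower at an unadjusted p below 0.05. Mesd, the endoplasmic reticulum chaperone of LDL receptor family proteins, measured 17.1, 9.06, 9.65 and 12.9 TPM in controls and 10.2, 5.87 and 5.85 TPM in oligo-1 mice (log2 fold change -0.67, SE 0.28, unadjusted p = 0.0393, limma). Rab7, the small GTPase of late endosomes, had a log2 fold change of -0.41 (SE 0.18, unadjusted p = 0.0470, limma). Without controls 1 and 4 the median of this group was -0.02, with no median of all tested genes for that comparison to set beside it.

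Of the 9 ubiquitination genes, all were tested, 8 had values below 0, and the median was -0.25. These are Mylip, its E2 partners of the UBE2D family, the deubiquitinases Usp2 and Usp8 and further ligases. Ube2d2a alone had an unadjusted p below 0.05 (0.0310, limma), with a log2 fold change of -0.66 (SE 0.26). It measured 55.8, 28.8, 60.7 and 40.8 TPM in controls and 28.9, 30.7 and 24.7 TPM in oligo-1 mice, and control 2 overlapped the oligo-1 group.

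Among 21 cytosolic and membrane contact site sterol carriers, 17 were tested and the median was -0.19. Stard4 was the 1 gene of the group at an unadjusted p below 0.05. Its closest relative in the list, Stard5, which carries cholesterol in the cytosol, measured 42.5, 48.0, 53.5 and 47.1 TPM in controls and 50.4, 55.9 and 54.2 TPM in oligo-1 mice (log2 fold change 0.16, SE 0.16). Stard3, a sterol-binding protein anchored in late endosomes, had a log2 fold change of -0.36 (SE 0.29). The most abundant carrier of the list was Scp2, whose protein also acts in peroxisomes, with 1916 to 2565 TPM in controls and 1800 to 2462 TPM in oligo-1 mice. Osbpl9, of the oxysterol-binding protein family, had the next smallest p after Stard4 (log2 fold change -0.39, unadjusted p = 0.0818, limma).

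All 14 genes of lysosomal cholesterol handling were tested, with a median of -0.20, 5 values above 0 and 9 below, and none at an unadjusted p below 0.05. The smallest p belonged to Lamp1, an abundant lysosomal membrane glycoprotein (log2 fold change -0.48, SE 0.22, unadjusted p = 0.0580, limma), followed by Tfe3, a transcription factor for lysosomal genes (-0.46, SE 0.24, unadjusted p = 0.0897, limma). Tmem97, whose protein binds NPC1, measured 87.8, 40.4, 65.1 and 103 TPM in controls and 72.4, 83.2 and 79.2 TPM in oligo-1 mice. Lipa, the acid lipase that frees cholesterol from esters, reached 98.4 TPM in control 1 and 107 TPM in control 4, with 33.2 to 64.3 TPM in the other libraries, the same 2 controls that were highest in Npc2. Without controls 1 and 4 the median of the list was 0.13. The median of all tested genes in that comparison is not given here, so -0.16 is not its reference.

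Of 10 genes of cholesterol esterification and sensing, 9 were tested, and the median was 0.15. At an unadjusted p below 0.05, 4 were higher, namely Insig1 (log2 fold change 1.27, SE 0.23), Srebf1 (0.71, SE 0.29), Srebf2 (0.63, SE 0.22) and Scap (0.46, SE 0.20), and Insig2 was lower (-1.22, SE 0.28). None of these passed the adjusted threshold. Soat2, which encodes the esterifying enzyme of hepatocytes, had a log2 fold change of 0.15 (SE 0.28).

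Median-ratio scaling moved the medians of all 6 lists upward. They became -0.09 for the receptors, -0.14 for chaperones, adaptors and recycling, -0.08 for ubiquitination, -0.02 for sterol carriers, -0.025 for lysosomal handling and 0.32 for esterification and sensing, where the median of all tested genes was -0.004. Of the 17 sterol carriers tested, 3 had values above 0 on the deposited scale and 8 after scaling. The genes lower at an unadjusted p below 0.05 after scaling were Sdc1 among the receptors, Mesd but not Rab7 among chaperones, adaptors and recycling, none in ubiquitination, and Tfe3 among the lysosomal genes (log2 fold change -0.30, SE 0.13, unadjusted p = 0.0456, limma). In the other 2 lists the genes at that level were the same as on the deposited scale.

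**Figure D4:**
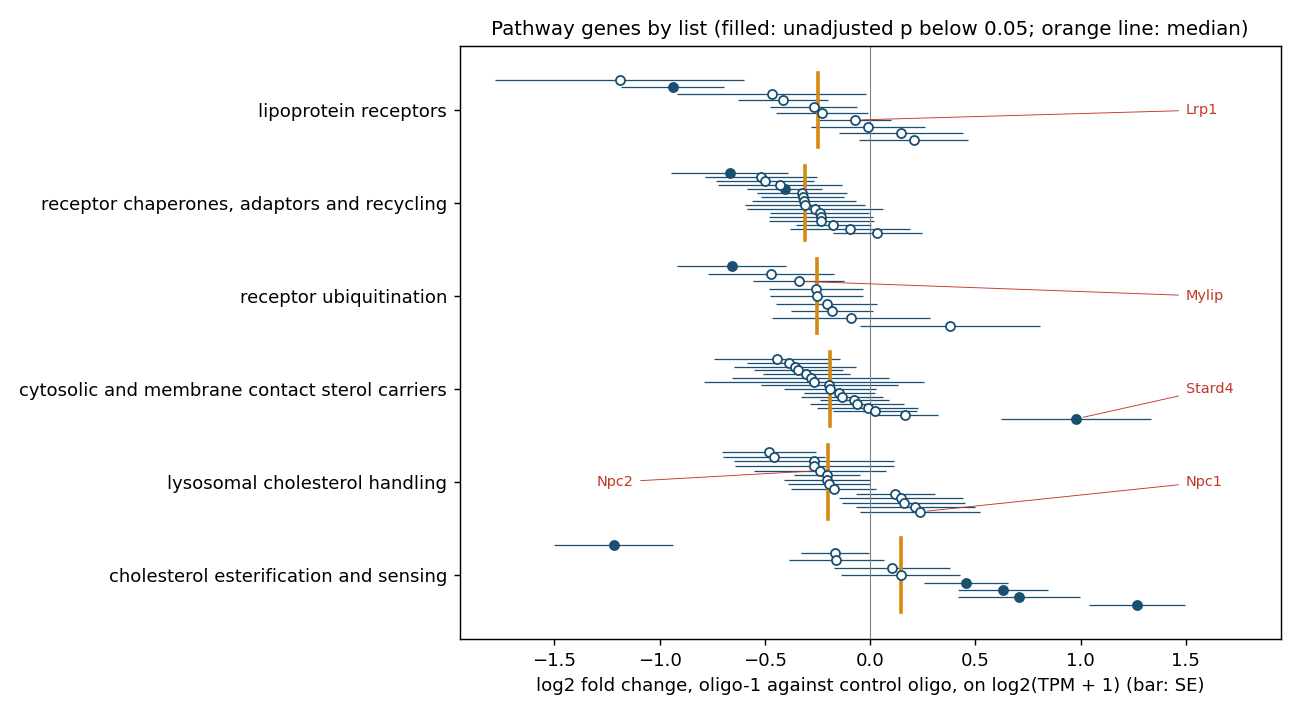
Log2 fold change, oligo-1 against control oligo, on the log2(TPM + 1) scale (horizontal axis, bars SE) for each tested gene of 6 lists by role (rows). Filled points have an unadjusted p below 0.05, the orange line is the list's median, and Stard4 at 0.98 is the 1 filled point among the sterol carriers.

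The log2 fold changes of the 5 genes were compared across the alternatives to show how far each depended on single libraries and on scaling. Stard4 was above 0 and Mylip below 0 in all 13 alternatives, from 0.55 to 1.34 and from -0.44 to -0.14 respectively. Not all of the 13 are separate checks of direction. Leaving out the filter cannot change a log2 fold change, and the replicate block gave the same values as leaving out control 4. Npc1 ranged from -0.03 to 0.58, Npc2 from -0.45 to 0.26 and Lrp1 from -0.13 to 0.10, so each of these 3 genes took both signs.

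**Figure D5:**
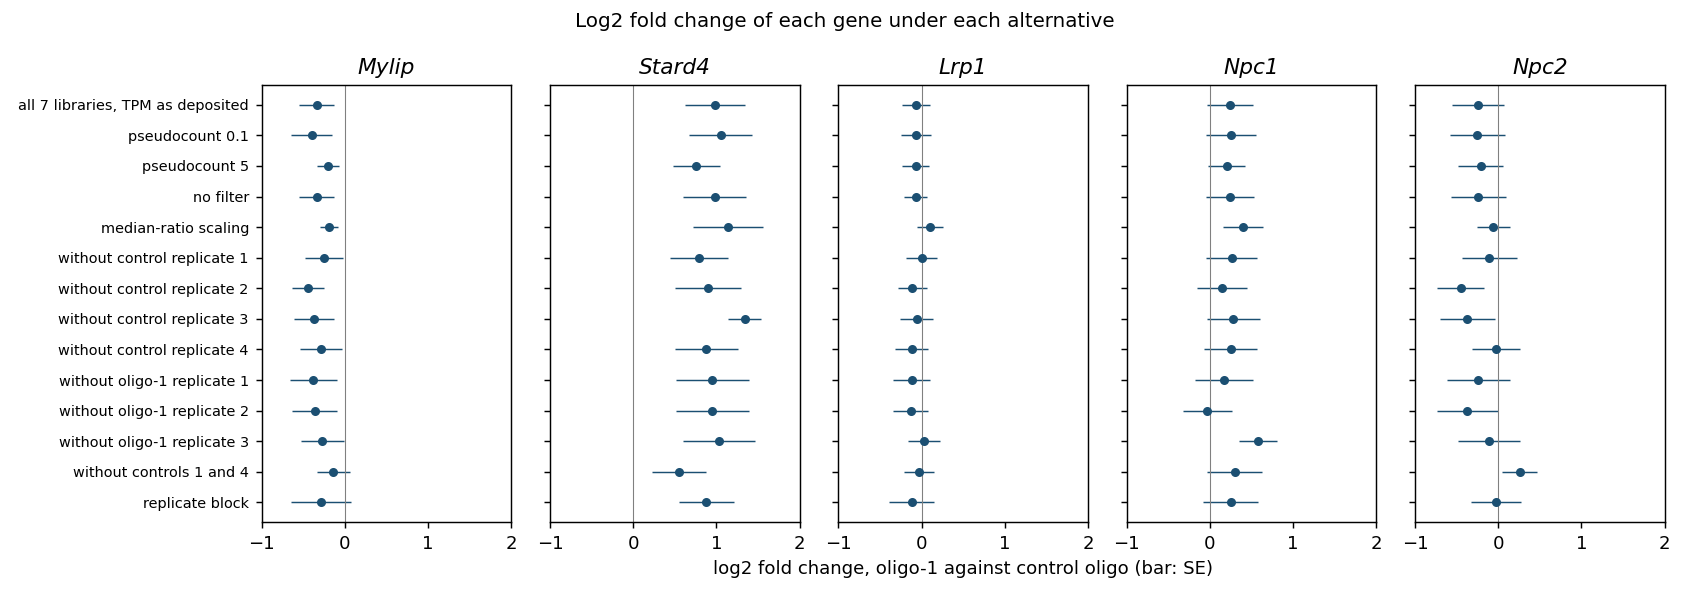
Log2 fold change with SE (horizontal axes, log2(TPM + 1) scale) of each gene (panels) with all 7 libraries and under each of 13 alternatives (rows). Stard4 stays above 0 (0.55 to 1.34) and Mylip below 0 (-0.44 to -0.14), while Lrp1, Npc1 and Npc2 fall on both sides of 0.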

How the data were processed

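Liver mRNA of 4 control oligo mice and 3 oligo-1 mice was analysed, with groups and replicate numbers from the library names. The study describes each library as 1 mouse. The authors isolated RNA with TRIzol, made Illumina libraries and quantified protein-coding genes with kallisto, (version: not given in the sources used here). The submitters' processing notes name mm10 as the genome. The deposited values are TPM, for which the authors divided estimated reads by effective transcript length and set every library to the same total. The listed genes held 85.8% to 88.3% of that total. TPM are shares, so genes that take more of a library lower all other values in it, and depth and counting error are unknown.

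Genes that reached a TPM of 1 in 3 or more libraries were tested on log2(TPM + 1) with limma-trend (limma 3.58.1, R 4.3.3), 2-sided, without covariates, on all 7 libraries. This scale understates the change of low genes. P-values were adjusted over all tested genes by the Benjamini-Hochberg method, with calls at an adjusted p below 0.05. The authors' edgeR analysis needs counts and was not repeated on TPM. The procedure was tested on simulated data. Positions are from GENCODE M21 (mm10) and promoter windows from RefSeq.

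The genes, lists and alternatives were chosen with earlier results of these data known. Named were the 5 genes, the genes of each list with an unadjusted p below 0.05 and otherwise up to 4 of smallest p, the 3 genes nearest to each of the 5 in pattern, and cell type markers. Other list genes were named for their role, after their values were seen. A few genes of the pathway are not reported here. Alternatives were pseudocounts of 0.1 and 5, no filter, median-ratio scaling, each library left out, controls 1 and 4 left out together, and the replicate number as a block.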

Additional observations from a re-analysis of the deposited data

Results flagged for a closer look

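The Stard4 level of control 3, 24.0 TPM, stood far above the other 3 controls, which lay between 7.08 and 9.13 TPM. In TPM as deposited, the gap to the nearest control was 0.879 of the whole range of the group. This is above the 95% limit of Dixon's test for a group of 4. The control groups of 5 genes were examined in this way, and chance marks about 1 in 20 such groups. The flag applies to the deposited TPM only. After median-ratio scaling controls 1 to 4 measured 5.59, 10.9, 25.1 and 7.12. On the log2(TPM + 1) scale used for the tests they lay at -0.972, -0.646, 0.658 and -0.718 from the gene's mean. On both scales the gap is a smaller share of the range. For Mylip, Lrp1 and Npc2 control 3 lay within the range of the other controls, and for Npc1 it was the highest control at 13.2 TPM, next to 12.7 TPM in control 1.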

How the results depend on the processing

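Each of the 5 log2 fold changes was recomputed under 13 alternatives. Leaving out 1 library at a time gave a range of 0.79 to 1.34 for Stard4, -0.44 to -0.25 for Mylip, -0.13 to 0.03 for Lrp1, -0.03 to 0.58 for Npc1 and -0.45 to -0.03 for Npc2. The highest Stard4 value came without control 3 (adjusted p = 0.0393, limma). Median-ratio scaling turned Lrp1 to 0.10 and moved Npc1 to 0.40, Npc2 to -0.06 and Mylip to -0.19. Leaving out controls 1 and 4 together turned Npc2 to 0.26, and Stard4 was 0.55 and Mylip -0.14 without them. The causes of these changes were not tested. The number of the 5 genes at an unadjusted p below 0.05 was 1 with all libraries, 0 to 2 with 1 library left out and 0 without controls 1 and 4. The number with groups that did not overlap was 0 with all libraries, 1 after median-ratio scaling (Mylip) and 0 to 1 with 1 library left out, where the gene was Mylip without control 2, Stard4 without control 3 and Npc1 without oligo-1 replicate 3. After scaling, 4.74% of tested genes had all oligo-1 libraries below all controls. With 1 library left out the share of all tested genes is not given here, and smaller groups separate more easily. Those counts are therefore no result about the named genes.

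Replicate numbers were not treated as pairs. Same-numbered libraries had correlations of 0.0777, -0.0154 and -0.115 in their deviations from the group means. Only oligo-1 replicate 1 correlated best with the control of its own number. These correlations cannot show whether mice shared a litter, cage or day, which the labels do not state. With the replicate number as a block, the log2 fold changes were 0.88 for Stard4 (adjusted p = 0.421, limma) and -0.29 for Mylip. They were -0.12 for Lrp1, 0.25 for Npc1 and -0.03 for Npc2. Control 4 is the only library with its replicate number, so it carried no weight in these values. They equal those obtained without control 4. The block called 86 tested genes, against 0 with all libraries and 0 without control 4. It also leaves less of the data for estimating the spread between mice. The 86 calls are therefore no result of blocking on all mice. Over all tested genes, 29 were called without control 3 and 1 without controls 1 and 4. Genes higher at an unadjusted p below 0.05 numbered 189 with all libraries, 327 with no filter, 485 after scaling, 729 without controls 1 and 4, and 111 without oligo-1 replicate 2. Those lower numbered 444 with all libraries, 185 to 1521 with 1 library left out and 287 without controls 1 and 4. The list medians that moved by more than the spread between mice did so without controls 1 and 4, to 0.51 for esterification and sensing, 0.02 for sterol carriers, 0.13 for lysosomal handling and -0.02 for chaperones, adaptors and recycling, and with scaling to -0.02 for sterol carriers. The median of all tested genes without controls 1 and 4 is not given here. These moves thus cannot be told apart from a shift of all genes. The depth behind each TPM value is unknown, and 4 against 3 mice limit the precision of every difference.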

Other observations

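Several genes of the lists had levels in controls 1 and 4 that lay outside the range of the other 5 libraries. Soat1, the cholesterol-esterifying enzyme prominent in macrophages, measured 3.87 and 3.76 TPM in controls 1 and 4 and 0.183 to 0.555 TPM in the other libraries. Cd36 measured 56.0 and 43.5 TPM there and 6.90 to 15.8 TPM elsewhere. Asah1, the lysosomal acid ceramidase, measured 11.6 and 11.8 TPM against 3.66 to 6.47 TPM. Usp2, a deubiquitinase that opposes IDOL, went the other way, with 11.6 and 8.72 TPM in controls 1 and 4 and 19.9 to 32.8 TPM in the other libraries. These genes were chosen after their values were seen.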
